A study of Mus musculus with 2 samples.

Results

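Pleiotrophin, encoded by Ptn, and midkine, encoded by Mdk, are the only members of a small family of secreted heparin-binding growth factors, and they are described here with Ptprz1, Alk and Sdc3, which encode receptors for them. These 5 genes were chosen by symbol, through the Entrez gene number of each array feature, from 24675 genes with a symbol. They were picked with earlier results from these arrays in view, the ventral excess of Ptn among them, so their values are a description and support nothing further. Expression in C57BL/6 mouse embryos at embryonic day 10.5, with no genetic change or treatment named, was read from Affymetrix Mouse Gene 2.0 ST arrays. The ventral group was tissue cut by laser from under the dorsal aorta, and the dorsal group was tissue cut from between the roof of that vessel and the notochord, both from the same embryos; the sources used here do not give how many. Each group had 1 array, labelled biological replicate 4, so there are no replicates, and neither an error nor a p-value goes with any value. Samples of later stages, named in the series design, were not analysed here. The series title names a subaortic niche of hematopoietic stem cells as its subject.

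Both factors are small basic proteins, rich in cysteine and lysine, that bind the sulfated sugar chains of proteoglycans and act on growth, migration and survival of nearby cells. PTPRZ1 is a receptor tyrosine phosphatase whose extracellular part carries chondroitin sulfate chains, and binding of pleiotrophin lowers its phosphatase activity. ALK is a receptor tyrosine kinase, best known from the nervous system, for which both factors have been proposed as ligands, directly or through PTPRZ1. Syndecan-3, the product of Sdc3, is a transmembrane proteoglycan of nerve, cartilage and muscle precursors whose heparan sulfate chains bind pleiotrophin. Pleiotrophin has also been described as a regenerative factor for hematopoietic stem cells in the adult marrow niche.

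Levels are log2 expression values and differences are ventral minus dorsal. A level was called background when it did not exceed 3.92, the 95th percentile of 1365 olfactory and vomeronasal receptor genes, a reference for genes silent in these tissues, and the 99th percentile of the same genes, 5.48, served as an upper mark. Array medians over all genes were 3.15 dorsally and 3.02 ventrally, so most genes lay under the background mark. Levels of different genes depend on their probes and are not ranked against each other. A gene was kept for counting when its higher value reached 3.10, the median over genes of the mean of both arrays, which left 13982 genes. Of the 5 genes, Ptn, Mdk and Sdc3 were kept, each reaching that floor on both arrays, and Ptprz1 and Alk were not.

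Of the ligands, Ptn had a level of 10.73 ventrally and 3.98 dorsally. The ventral level was far over both marks, while the dorsal level lay just above the lower one, and 94.4% of the olfactory and vomeronasal reference was dimmer on the dorsal array. The difference was 6.75 on the log2 scale, or 108-fold higher in the ventral sample. Because the dorsal level lay between the marks, a more cautious statement takes the upper mark as the dorsal level, and the ventral excess was then at least 37.9-fold. Of all kept genes, 1320 (9.44%) were higher ventrally by at least 2-fold and 682 (4.88%) higher dorsally by at least 2-fold. Only Uchl3 and the small nucleolar RNA gene Snord100, identified after their values were seen, had a greater ventral excess than Ptn. Among 403 kept genes whose mean level lay within 0.5 of that of Ptn, 144 were at least 2-fold apart and 1 was as far apart as Ptn. In pieces of mixed tissue such as these, fewer cells of a type and less RNA per cell cannot be told apart. With 1 array per tissue, neither can be told apart from chance loss of a transcript when the RNA was amplified.

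Mdk had a level of 5.82 dorsally and 5.63 ventrally. Both levels lay above the upper mark, and they differed by -0.19, or 1.14-fold. The median difference over all kept genes was -0.12, and relative to it the difference of Mdk was -0.07. Of 1067 kept genes with a mean level within 0.5 of that of Mdk, 33.5% were at least 2-fold apart and 885 were at least as far apart as Mdk. The pair of ligands therefore had unlike values on these arrays: Mdk was above background at near-equal levels on both sides of the aorta, whereas Ptn was bright on the ventral side alone.

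**Figure D1:**
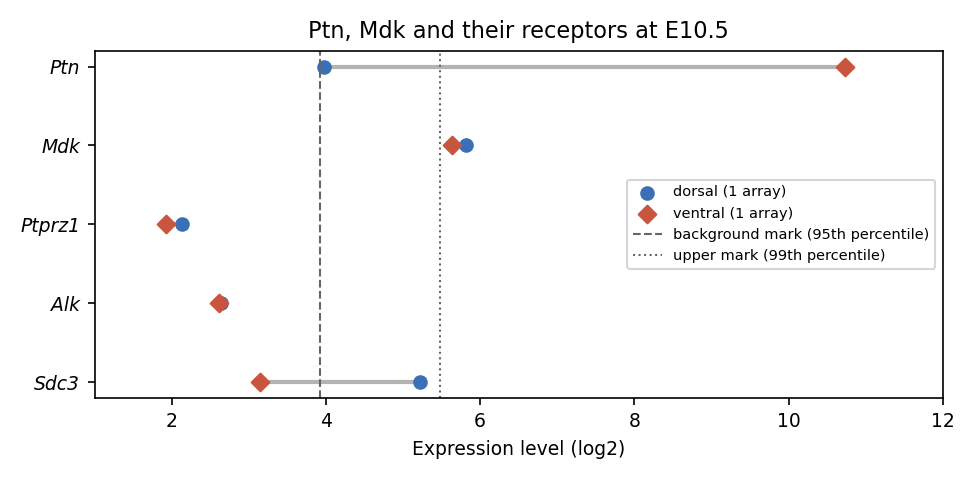
Expression level (log2, horizontal axis) of each gene in the dorsal array (blue circles) and the ventral array (red diamonds), with dashed and dotted lines at the 95th and 99th percentiles of the olfactory and vomeronasal reference. Ptn runs from 3.98 dorsally to 10.73 ventrally, Mdk lies above both lines on both arrays, Sdc3 is higher in the dorsal sample at 5.22, and both values of Ptprz1 and of Alk lie left of the dashed line.

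Of the receptors, Sdc3 had a level of 5.22 dorsally and 3.14 ventrally, the reverse of the order of Ptn. The ventral level was at background, so the dorsal excess is given as a bound, at least 2.47-fold, against 4.23-fold on the measured values. The dorsal level exceeded 98.5% of the olfactory and vomeronasal reference but not its 99th percentile, and with both values raised to that upper mark no difference was left. Among kept genes 114 had a greater dorsal excess. Of 3903 kept genes with a mean level within 0.5 of that of Sdc3, 15.0% were at least 2-fold apart and 140 were as far apart as Sdc3.

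Ptprz1 had a level of 2.13 dorsally and 1.93 ventrally. Alk had levels of 2.64 and 2.61, in the same order. All 4 levels were at background. On the dorsal array 25.9% of the olfactory and vomeronasal receptor genes were dimmer than Ptprz1 and 65.5% were dimmer than Alk. A transcript of either receptor was not detectable at this signal on either side of the aorta, and no fold is given. The sign of the Alk difference, -0.03 as deposited, turned to between 0.09 and 0.10 under the 3 scalings tried (quantile normalization, centring on the median of kept genes and loess on level). On the ventral array, where Ptn was bright, none of the 3 receptors was above background, and on the dorsal array Sdc3 was the only one that was.

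**Figure D2:**
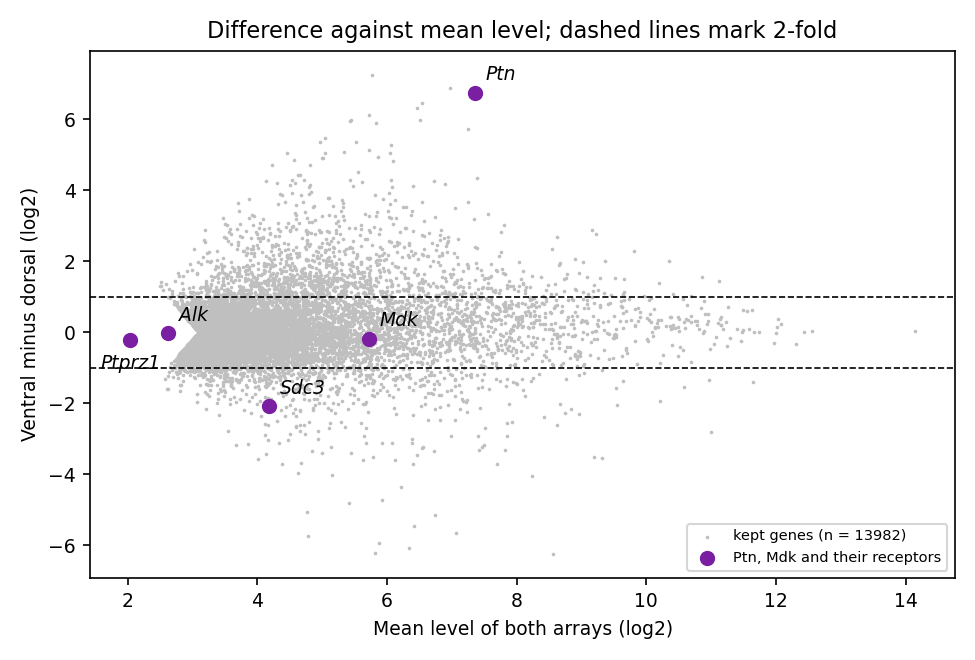
Difference, ventral minus dorsal (log2, vertical axis), against the mean level of both arrays (log2, horizontal axis) for 13982 kept genes (grey) and for Ptn, Mdk, Ptprz1, Alk and Sdc3 (purple), of which Ptprz1 and Alk were not kept. Ptn lies at 6.75 near the top edge of the cloud, Sdc3 at -2.08 below the dashed line for 2-fold, and the other three lie between the dashed lines.

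Other proteins reported to bind pleiotrophin or midkine were read from a list of 17 genes, of which 14 were kept. Among the 17, Ltk encodes a relative of ALK and is not described here as a binder of either factor. Integrin beta 1, encoded by Itgb1, and integrin alpha V, encoded by Itgav, were higher ventrally by at least 2-fold, and none was higher dorsally by that much, so that 2 of 14 stand beside the 9.44% of all kept genes higher ventrally. Itgb1 had a level of 7.59 ventrally and 6.49 dorsally, or 2.14-fold. Itgav had levels of 5.56 and 4.44 in the same order, or 2.18-fold. With the columns quantile-normalized both differences were under 2-fold, 0.78 and 0.93, as was that of Itgb1 after loess on level, 0.91. Against the upper mark the excess of Itgav was at least 1.06-fold. Integrin alpha V forms a pleiotrophin receptor with integrin beta 3, whose gene, Itgb3, was at background in both samples, with 3.04 dorsally and a slightly lower value ventrally. The median difference of the 14 kept genes was 0.17, beside -0.12 for all kept genes.

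Nucleolin, the product of Ncl, is a nucleolar protein that also binds both factors at the cell surface, and it had a level of 10.34 dorsally and 10.44 ventrally. Lrp6, a Wnt co-receptor that binds midkine, was above the upper mark on both arrays, at 5.80 and 5.90. Lrp1, an endocytic receptor of midkine, was measured at 4.28 and 4.53. These 3 genes were within 2-fold, as Mdk was. Nrp1, which encodes neuropilin-1, was over the mark only in the ventral sample, at 4.12 against 3.40. Ltk, the kinase most like Alk, had a level of 3.97 dorsally and 3.52 ventrally, close to the background mark. The ligands of ALK and LTK, encoded by Alkal1 and Alkal2, were at background in both samples, with levels from 2.30 to 3.79. In all, 6 of the 17 genes were above background on both arrays and 8 were at background on both, beside 71.2% of all genes.

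**Figure D3:**
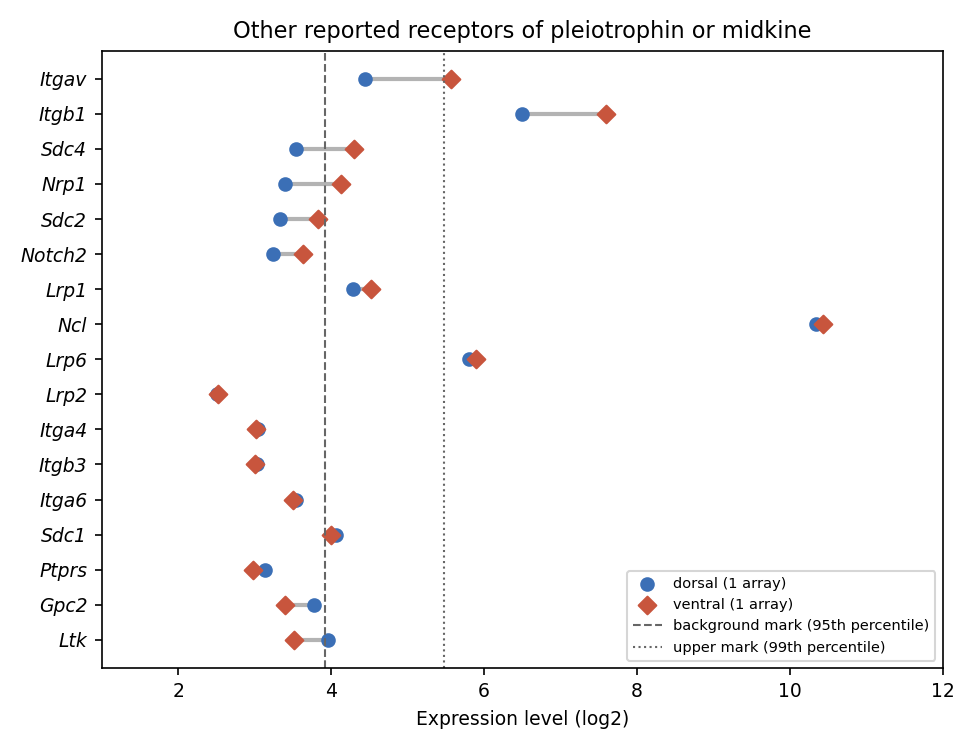
Expression level (log2, horizontal axis) of 17 genes listed as other receptors of pleiotrophin or midkine, in the dorsal array (blue circles) and the ventral array (red diamonds), ordered by difference. Ltk was listed with them as a relative of Alk. Dashed and dotted lines mark the 95th and 99th percentiles of the olfactory and vomeronasal reference; Itgav and Itgb1 show the widest gaps, of 1.12 and 1.10, and 8 genes lie left of the dashed line on both arrays.

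The other 3 syndecan genes were within 2-fold. Sdc4 was over the mark only in the ventral sample, at 4.30 against 3.55 in the dorsal sample. Sdc1 lay just above the mark on both arrays, with 4.06 dorsally and 4.00 ventrally. Sdc2 was at background in both samples, at 3.33 and 3.83. Glypicans carry heparan sulfate on a lipid-anchored core, and Gpc3 was bright on both arrays at 10.09 and 10.10. Gpc6 was over the mark only in the ventral sample, at 4.08 against 3.04, a difference of at least 1.12-fold. Sdcbp, which encodes syntenin, a scaffold that binds the tail of syndecans, was within 2-fold with 5.46 dorsally and 6.32 ventrally. Ezr, which encodes ezrin, a linker of membrane proteins to actin, had a level of 3.93 dorsally and 4.54 ventrally. Cask, a scaffold protein that binds the same tail, was measured at 3.92 and 4.27. Synj2bp, which has no such role known, had been listed with these scaffolds in error. It had a level of 6.68 ventrally and 2.48 dorsally, higher ventrally by at least 6.78-fold, and by at least 2.29-fold against the upper mark.

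Of 10 listed relatives and other ligands of PTPRZ1, 9 did not exceed the mark on either array, beside 71.2% of all genes. Ptprg, the phosphatase gene most like Ptprz1, had a level of 3.73 ventrally and 2.77 dorsally, both at background. Tenascin C, a matrix protein that binds PTPRZ1 and is encoded by Tnc, was the exception, with 5.71 ventrally and 3.22 dorsally. Tnc was higher ventrally by at least 3.47-fold, and by at least 1.175-fold against the upper mark. The neural adhesion molecules that bind PTPRZ1, among them the products of Cntn1 and Nrcam, were at background, at 2.91 and 2.38 dorsally and 2.77 and 2.27 ventrally.

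Enzymes that build or trim heparan sulfate and chondroitin sulfate, the chains to which both factors bind, gave counts close to the background share. Of 47 measured genes 24 were kept, 2 of them higher ventrally by at least 2-fold and 2 dorsally, beside 14.3% of all kept genes in either direction. Sulf2, an extracellular sulfatase that removes sulfate groups from heparan sulfate, had a level of 8.72 dorsally and 7.28 ventrally, or 2.72-fold. Its relative Sulf1 was within 2-fold, at 4.62 and 4.95. Xylt1, which adds the first sugar of each chain, was higher ventrally by at least 1.61-fold, at 4.61 against 3.09. Extl3, a chain initiation enzyme, had a level of 4.00 dorsally and 2.88 ventrally, a difference of at least 1.06-fold, and under 2-fold on the loess-corrected scale at -0.97. Fam20b, a xylose kinase, was higher ventrally by at least 2-fold on measured values, although both levels, 3.37 and 2.25, were at background. Glce, which epimerises heparan sulfate, was within 2-fold with 3.74 dorsally and 4.26 ventrally.

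Ext1, the heparan sulfate polymerase gene, had a level of 6.12 dorsally and 5.91 ventrally. The 7 kept chondroitin sulfate genes were all within 2-fold, with differences from -0.71 to -0.06. Chst14, a dermatan sulfotransferase gene, had a level of 6.05 dorsally and 5.34 ventrally, and after quantile normalization its difference just passed 2-fold. Chsy1, a chondroitin synthase gene, was measured at 7.40 and 7.05, and its relative Chsy3 at 4.68 and 4.00. The median difference over the 24 kept genes of both classes was -0.29, beside -0.12 for all kept genes.

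Ptn was set beside 38 other secreted factors and matrix proteins that bind heparin or heparan sulfate, of which 26 were kept. Of these 3 were higher ventrally by at least 2-fold and 5 dorsally, beside 9.44% and 4.88% of all kept genes. Their differences ran from -3.52 to 1.92, so that the 6.75 of Ptn exceeded the highest of them. Igfbp3, an insulin-like growth factor binding protein, had the greatest ventral excess, at 6.37 against 4.45, or 3.77-fold, and at least 1.85-fold against the upper mark. Bmp4, a bone morphogenetic protein, had a level of 5.54 ventrally and 3.83 dorsally. It was higher ventrally by at least 3.07-fold, and by at least 1.04-fold against the upper mark. The axon guidance ligands Slit2 and Slit3 went opposite ways. Slit2 had a level of 5.54 ventrally and 4.11 dorsally, or 2.70-fold higher in the ventral sample and at least 1.04-fold against the upper mark. Slit3 had levels of 4.52 and 5.65, or 2.18-fold higher in the dorsal sample and at least 1.12-fold against the upper mark.

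Cxcl12, a chemokine that binds heparan sulfate, had the greatest dorsal excess of this list, 11.5-fold, with 10.96 dorsally and 7.44 ventrally. Shh, the Hedgehog ligand of the notochord, was higher dorsally by at least 2.30-fold. Its dorsal level, 5.12, lay under the upper mark, so against that mark no difference was left. The other 2 factors higher dorsally by at least 2-fold lay close to that threshold: Ccn2 at 5.04 against 4.01 and Bmp7 at 4.85 against 3.85, and neither reached it with differences centred on the median of kept genes, at -0.91 and -0.88, or after loess on level, at -0.98 and -0.93. The median of the 26 kept factors was -0.19, beside -0.12 for all kept genes, and Mdk, at -0.19, lay at that median.

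**Figure D4:**
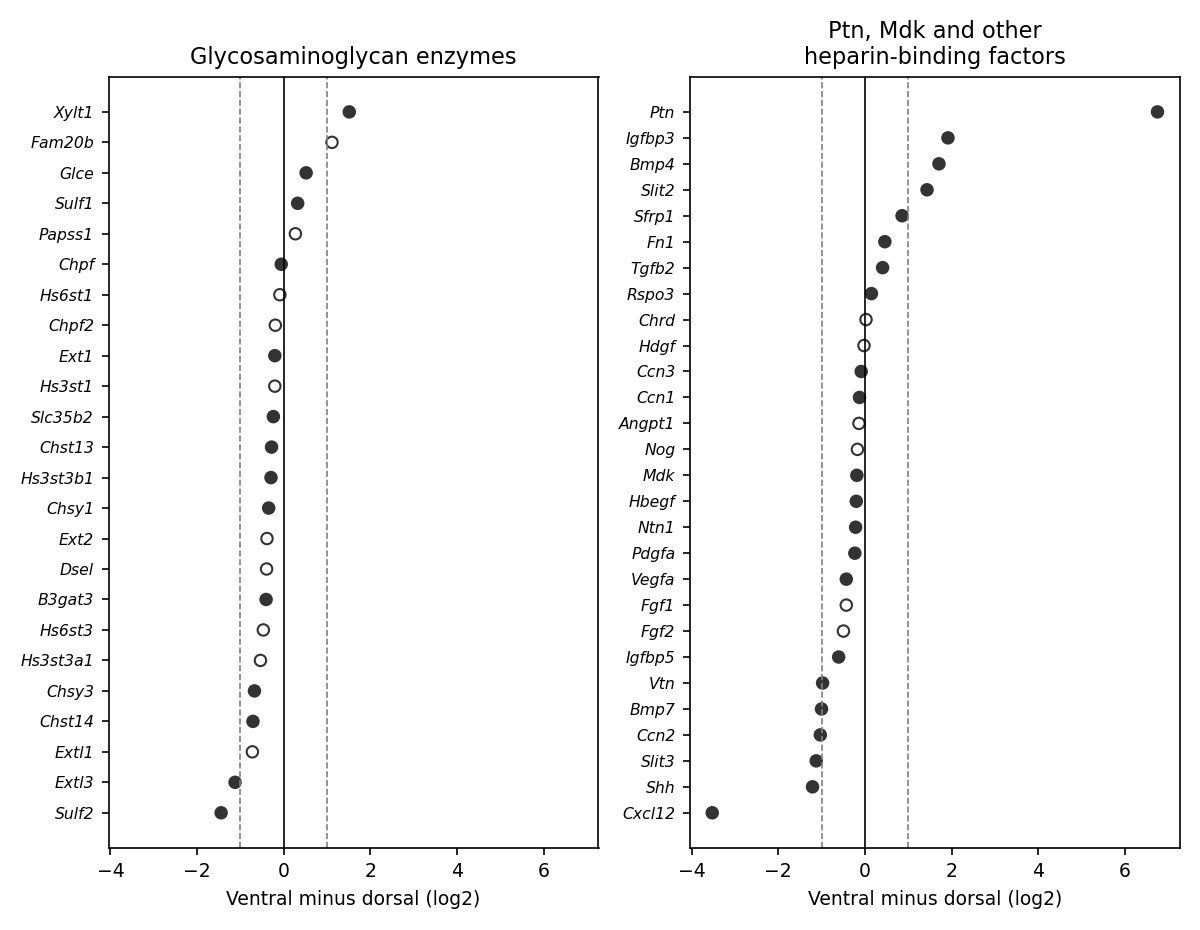
Difference, ventral minus dorsal (log2, horizontal axes), for 24 kept genes of glycosaminoglycan synthesis (left) and for Ptn, Mdk and 26 other kept heparin-binding factors (right), with dashed lines at 2-fold and open points where both arrays were at background. Ptn stands at 6.75, beyond the 1.92 of Igfbp3, while the enzymes lie between -1.44 and 1.51.

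Some markers of several cell types were also higher in the ventral sample, as Ptn was; their counts stand beside the 9.44% of all kept genes higher ventrally and the 4.88% higher dorsally. Of 9 kept coelomic epithelium markers 3 were at least 2-fold higher there and none in the dorsal sample, with a mean level over the 10 measured markers of 4.23 ventrally and 3.42 dorsally. Their levels ran from 2.92 to 6.61 in the ventral sample and from 2.91 to 3.89 in the dorsal sample. All 10 were at background dorsally, where only 5975 of all 24675 genes exceeded the mark. Wt1, the Wilms tumour factor of that epithelium, had a level of 6.61 ventrally and 3.80 dorsally, and Krt19, Msln, Nr5a1 and Upk3b were at background in both samples. Of 7 smooth muscle markers 4 were higher ventrally by at least 2-fold, with mean levels of 4.84 and 3.65. Myh11, which defines mature smooth muscle, and Cspg4 were at background in both samples. Of 7 kept endothelial markers 3 were higher ventrally by at least 2-fold, with mean levels over all 9 of 4.21 and 3.53. Of the 9, Tek, Tie1, Egfl7 and Esam were at background in both samples. Over all genes, 71.2% were at background on both arrays. Mesenchyme markers, whose mean levels were 4.84 ventrally and 4.68 dorsally, had 2 of 10 kept genes higher ventrally by at least 2-fold and 1 dorsally. As a list they were not shifted ventrally, with a median difference of -0.13 beside -0.12 for all kept genes. The highest difference among them was that of Tcf21, 3.59. Of the markers above past 2-fold, Cnn1, Rgs5, Emx2 and Tcf21 were kept through the ventral array alone. Their dorsal levels were 2.85, 2.78, 2.96 and 2.79. The part of these cell types in the Ptn difference was not tested.

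Some other markers were higher in the dorsal sample, as Sdc3 was, again beside the 4.88% of all kept genes higher dorsally and the 9.44% higher ventrally. Of 7 sclerotome markers 3 were at least 2-fold higher there and none in the ventral sample, with mean levels of 4.71 dorsally and 4.00 ventrally. Pax1 and Nkx3-2 were at background in both samples. Of 5 measured notochord markers 2 were higher dorsally by at least 2-fold, with mean levels of 4.44 and 4.07; with differences centred on the median of kept genes, Noto was under 2-fold at -0.91 and Krt18 past it at 1.02, so that 1 was higher in each direction. Neural crest and glial markers had 1 of 5 kept genes past 2-fold in each direction, with mean levels of 3.94 dorsally and 3.72 ventrally, and Sox10 and Foxd3 were at background in both samples. Of 6 kept markers of the neural tube and neurons 2 were higher ventrally by at least 2-fold and 1 dorsally. Their list had mean levels of 3.48 dorsally and 3.67 ventrally. Nefm was higher ventrally, at 8.19 against 5.45, as was Nefl, at 3.96 against 2.62. Tubb3 was higher dorsally, at 5.78 against 4.64. Sox2 and Pax6 were among those at background in both samples. Among 6 kept erythroid, 3 kept macrophage and 6 kept gut or liver markers none was higher ventrally by 2-fold. Dorsally 1, 0 and 1 were higher by that much. The erythroid gene was Klf1, which was under 2-fold after centring, at -0.98. Of 7 measured macrophage markers 6 were at background in both samples, as were 7 of 9 gut or liver markers, beside 71.2% of all genes. The macrophage exception was Cx3cr1, at 6.07 dorsally and 5.62 ventrally. The gut or liver exceptions were Ttr, at 6.89 dorsally and 4.32 ventrally, and Hnf4a, at 3.96 and 3.46. Of the markers past 2-fold in these lists, Nefl and Tfap2b were kept through the ventral array alone and Uncx through the dorsal array alone. The part of these cell types in the Sdc3 difference was not tested.

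Ptn and Mdk also share the order of genes around them. In the reference gene table of the GRCm38.p6 assembly, Ptn lies between Chrm2, a muscarinic acetylcholine receptor gene, and Dgki, a diacylglycerol kinase gene, with Creb3l2, which encodes a membrane-bound transcription factor, next after Dgki. Mdk lies in the same way between Chrm4 and Dgkz, with Creb3l1 next, each the paralog of the gene at the same place beside Ptn. The neighbours of Ptn had smaller differences. Chrm2 had a level of 2.65 dorsally and 2.33 ventrally, Dgki 3.35 and 3.31, and Creb3l2 4.31 and 3.96. Mtpn, which encodes myotrophin and lies beyond Chrm2, was higher in the ventral sample at 6.73 against 5.42, a difference of 1.31. The 4 neighbours of Mdk, Ambra1 among them, had differences from -0.39 to 0.10, all with levels at background.

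Likeness to each gene was measured as the Euclidean distance over the 2 log2 levels, which also takes in how bright a gene's probes are. Symbols of predicted or clone-named genes, pseudogenes, microRNAs, small nucleolar RNAs, and olfactory or vomeronasal receptors were left out of this search. Symbols made of a letter and a number were also left out. The nearest genes to Ptn were Ss18l2, with 4.38 dorsally and 10.12 ventrally and a distance of 0.72, and Rab4a, at 3.51 and 9.49 and a distance of 1.32. Ptp4a2, Postn and Trappc6b came next, at distances of 1.93, 1.98 and 2.11. The nearest to Mdk were Cdc25a, Trav12-1 and Dazap1, at distances of 0.03 to 0.04, and the nearest to Sdc3 were Ckap2l, Tmem189 and Polr2d, at 0.05 to 0.16.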

How the data were processed

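Per the labels' protocols, laser-cut pieces came from 20 µm frozen sections, and RNA inputs of 200 to 1000 pg were amplified with a single-primer isothermal kit, a step in which rare transcripts can drop out by chance. The authors deposited log2 values, a single one for each gene on each array. Affymetrix Expression Console and RMA (background correction, quantile normalization of probes, median polish) are the tools in the submitters' processing notes. Their versions, the genome build, the probe annotation and which arrays were normalized together: not given in the sources used here. Precision is limited by the number of arrays, 2.

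Of 25429 features, 24675 carried 1 symbol in the platform annotation, all matched by gene number to the reference table, and 754 without a symbol were left out. Each array was placed by its title. With 1 array per tissue no test was possible, and genes were counted by size, at least 2-fold. Where the lower level was at background, the fold is a bound against the 95th percentile of 1365 olfactory and vomeronasal receptor genes. The genes and lists were chosen with earlier results of these data known: 21 lists named 244 genes, of which 234 were measured. Named genes were the 5 described, up to 6 detected members of each other list with the greatest differences (marker lists are given mainly as counts), chosen relatives, the nearest genes by level and the reference neighbours. Further list members, and the window of 0.5 around a mean level, were chosen after values were seen. Alternatives were quantile normalization, centring on the median, a level-dependent loess of span 0.3, changed floors, and fold thresholds of 1.5 and 3. The counting code was checked on simulated data with large known differences, which does not measure how many counts on these arrays are false. Python 3.11.15, numpy 2.4.6, pandas 2.3.3, statsmodels 0.14.6 and matplotlib 3.10.9 were used.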

Additional observations from a re-analysis of the deposited data

How the results depend on the processing

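The Ptn difference kept its direction and stayed over 2-fold under every alternative run, from 6.54 after loess on level to 6.87 after centring; with values raised to the upper background mark it was 5.25. Sdc3 lay between -2.16 and -1.96 under the scalings, was -1.31 with values raised to the background mark and 0 at the upper mark. Mdk stayed within 2-fold throughout, from -0.48 to -0.07. Ptprz1 and Alk had no level above background under the deposited scale, so their differences carry no weight. At fold thresholds of 1.5 and 3 the genes higher in the ventral sample numbered 2286 and 626, those higher in the dorsal sample 2099 and 228, the other receptors apart 4 and 0, the glycosaminoglycan genes 7 and 0, and the heparin-binding factors 11 and 3, as fewer or more genes pass by construction. After quantile normalization 0 of the other receptors and 5 of the glycosaminoglycan genes, Chst14 added, were apart. Rescaling every list, chosen after seeing the data, moved the signalling list from 0 ventral and 2 dorsal to 3 and 2 after centring. The notochord markers went from 0 and 2 to 1 and 1 after centring. Loess gave 2 and 2 for the signalling list and 0 and 1 for the notochord markers. The PTPRZ1 relatives higher ventrally went from 1 to 2 under each scaling, Ptprg added. Endothelial and coelomic epithelium markers higher ventrally each went from 3 to 4 after centring and after loess. Smooth muscle markers higher ventrally went from 4 to 3 after quantile normalization. Mesenchyme markers higher dorsally went from 1 to 2 after quantile normalization and after loess, and erythroid markers from 1 to 0 after centring. No paired analysis was possible because each tissue had 1 array, so that the shared replicate number gives a single pair. The number of arrays and the low signal of most genes limit every value.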

Other observations

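Genes of the signalling steps reported below PTPRZ1 and ALK were read from a list of 19, of which 16 were measured and 15 kept. None was higher ventrally by at least 2-fold and 2 were higher dorsally by that much, beside 9.44% and 4.88% of all kept genes. With differences centred on the median of kept genes 3 were higher ventrally, Plcg1, Cdk5 and Grb2, at 1.11, 1.07 and 1.04. Pxn, which encodes the focal adhesion protein paxillin, was 5.53 dorsally and 4.38 ventrally, or 2.22-fold, and at least 1.03-fold against the upper mark. Stat3, a transcription factor activated by tyrosine kinases, was higher dorsally by at least 1.19-fold, at 4.17 against 2.77. Plcg1, Cdk5, Grb2 and Cttn lay just within 2-fold on the ventral side, with differences of 0.99, 0.95, 0.92 and 0.87. Ctnnb1, the gene of the PTPRZ1 substrate beta-catenin, was measured at 7.60 and 7.35, and Fyn, the gene of a kinase that is also a substrate, was at background in both samples, at 2.99 and 2.89. The median difference was -0.25, beside -0.12 for all kept genes.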
